A study of Mus musculus with 6 samples.

Results

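Splicing removes introns from precursor RNA and is carried out by the spliceosome, which is built from small nuclear ribonucleoproteins (snRNPs) and many further proteins. Sm proteins form a ring on most spliceosomal small nuclear RNAs, Lsm proteins form the matching ring on U6, SF3a, SF3b and U2AF act where the branch point and the 3′ splice site are recognised, and Prpf factors work in the tri-snRNP and in activation. SR proteins (Srsf genes) bind exons and recruit this machinery, and they tune their own transcripts through exons that lead to decay. The set described here holds every probe set whose only platform gene symbol begins with Snrp, Sf3a or Sf3b, Srsf, U2af, Prpf or Lsm. That rule, which uses names and no measured value, found 74 probe sets of 56 genes, out of 16311 single-symbol probe sets of 15153 genes.

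Expression was read on 6 arrays, each with RNA of a pool of 3 presomitic mesoderms dissected from mouse embryos at embryonic day 9.5 and 17 to 19 somites. The 3 control pools came from embryos labelled WT, with a genotype of Taf10Flox/+ or Taf10flox/flox, and the labels do not say whether any control carried Cre. The 3 mutant pools came from TCre/+;Taf10flox/flox embryos, in which Cre is driven by T (Brachyury) sequence active in the primitive streak and early mesoderm. TAF10 is a subunit of TFIID and SAGA, complexes that act with RNA polymerase II at promoters. The comparison asks how transcript levels in this tissue differ when Taf10 is deleted. Since each array was normalized to the others and the tissue was read in bulk, fewer cells of a type and less RNA per cell cannot be told apart.

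The arrays had median intensities from 307.9 to 317.5. Mutant 3 stood apart: over all genes its root mean square deviation from the mutant mean was 0.184 log2 units, against 0.0762 to 0.112 on the other arrays. Tissue markers were read in all pools: the summed intensity of 9 presomitic mesoderm markers was 19503 to 20681 in controls and 24557 to 26698 in mutants, with 1 lower and 2 higher by the test used below. Of 29 markers of neural, blood, endothelial, endodermal, ectodermal and notochord cells, 0 passed, and endothelial markers summed to 541.7 to 1706 in controls and 420.1 to 1121 in mutants. The summed blood markers ranged from 9162 to 22193 in controls and from 3850, in mutant 3, to 16455 in mutants, and the part of these markers in the results below was not tested. Taf10 has 2 probe sets. The brighter one was lower in the mutant, at 10.77, 10.61 and 10.69 in controls and 10.40, 10.37 and 10.18 in mutants (log2 change -0.37, SE 0.08, adjusted p = 0.0400 by limma), but 0 of its 20 neighbours in the numbering of the array lie near Taf10. The other, with 19 of 20 neighbours near Taf10, read 8.95, 8.89 and 8.79 in controls and 8.85, 8.93 and 9.19 in mutants (0.11, SE 0.10, adjusted p = 0.530). Whether either lies in the deleted part is not known here, so neither checks the genotype labels.

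In mutant presomitic mesoderm 3 of the 56 genes fell: Lsm6 to 63.3% of control, Sf3b2 to 79.3% and Lsm4 to 82.5%. No member rose by the same test, and 53 did not pass. A gene was called changed at a limma p under 0.05 after Benjamini-Hochberg adjustment over all single-symbol probe sets. The share called lower was 5.36% of members against 2.96% of all 15153 genes, and for rises it was 0% of members against 2.96%. At an unadjusted p under 0.05 limma gave 15 members lower and 2 higher, where all genes gave 10.9% lower and 11.7% higher. Small negative differences were common among the members: 47 of 56 (83.9%) had a log2 change below 0, against 40.7% of all genes. The median change was -0.14 for the members and 0.03 for all genes. In 22 members (39.3%) the 3 mutant values all lay below the 3 controls, against 15.1% of all genes, and in 3 members they all lay above, where the share of all genes was 17.2%. These counts describe the set, which was chosen with earlier results of these data known, and no test as a set was made. The median was -0.08 without mutant 3.

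**Figure D1:**
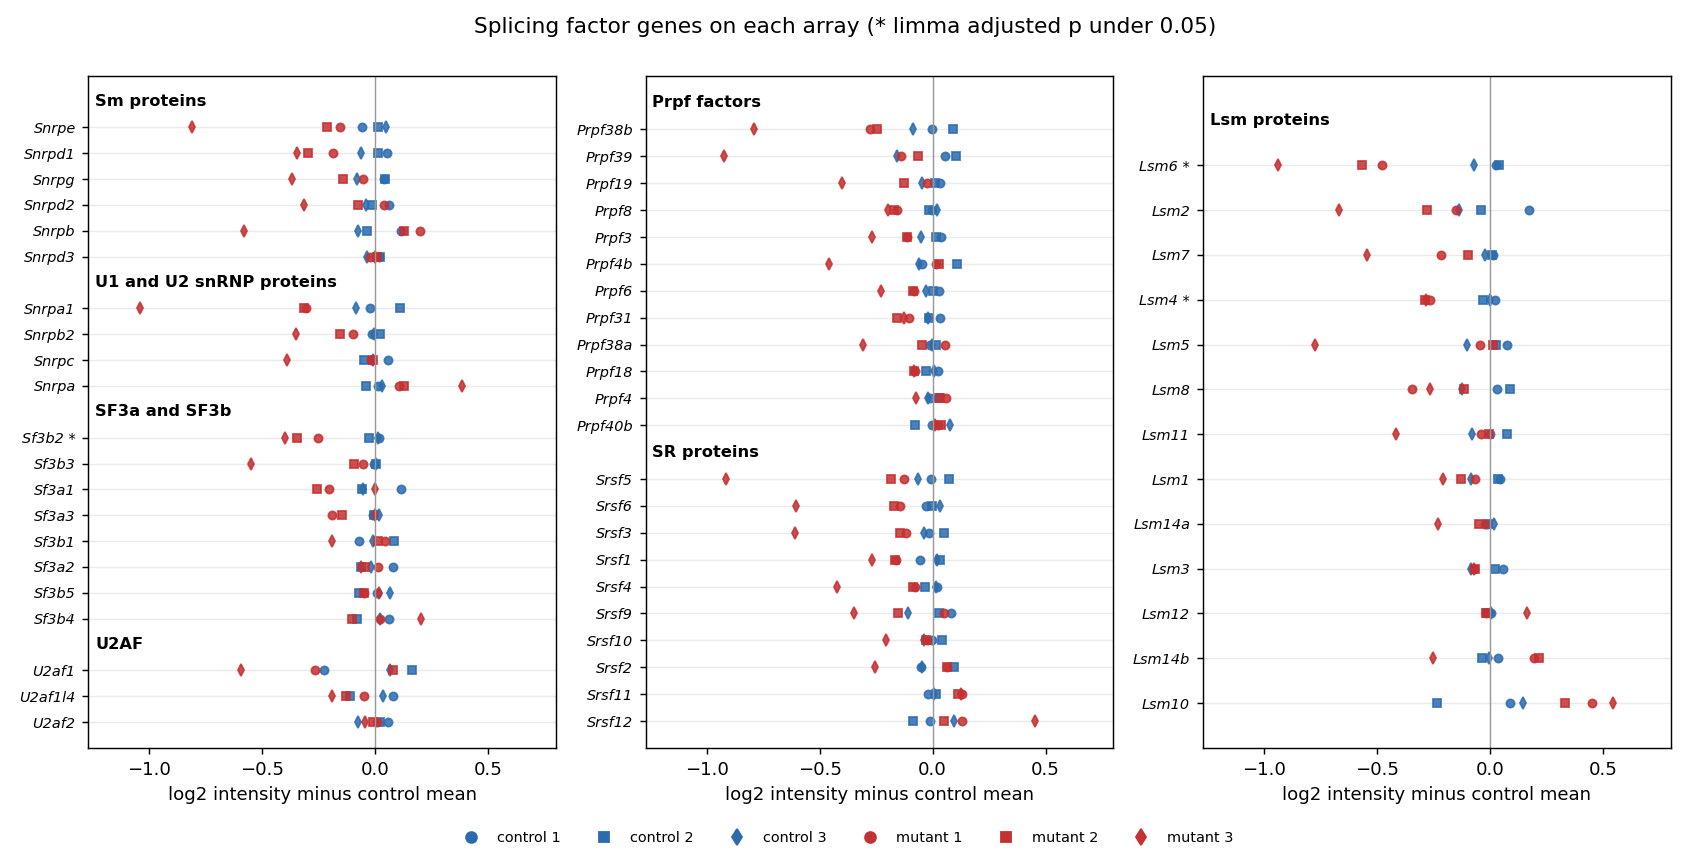
For each of the 56 genes, the distance of every pool from the control mean (x axis, log2 units), with control pools in blue and mutant pools in red. Each row is a gene, grouped by role and ordered by its change, each marker shape is a replicate number, and a star marks Lsm6, Lsm4 and Sf3b2, the genes called lower. Mutant 3 (red diamond) is the lowest mutant in 41 rows.

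To show what the members share beyond their names, the 250 bases before the annotated transcript start were read from RefSeq (GRCm38.p6). A window was listed for 47 members, in 58 windows where a gene has several starts. The windows of 2 genes that fell, Sf3b2 and Lsm6, are shown. That of Snrpb2, 1 of the 22 members whose 3 mutant values all lay below the controls, was added by hand as an example. No window is listed for Lsm4. Capitals mark CCGGAAG, the core bound by ETS-family factors, and CCAAT, the box bound by NF-Y, each on either strand (CTTCCGG and ATTGG when read from the other strand). The window of Lsm6 holds neither, nor does that of Snrpa1, whose mutant values also all lay below the controls.
Sf3b2 (chr19:5295458-5295707, minus strand): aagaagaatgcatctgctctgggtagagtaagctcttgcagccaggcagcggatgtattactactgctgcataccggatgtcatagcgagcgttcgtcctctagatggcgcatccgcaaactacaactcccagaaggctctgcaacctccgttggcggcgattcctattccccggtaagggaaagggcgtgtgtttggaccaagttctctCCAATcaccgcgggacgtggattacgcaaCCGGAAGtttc
Snrpb2 (chr2:143062819-143063068, plus strand): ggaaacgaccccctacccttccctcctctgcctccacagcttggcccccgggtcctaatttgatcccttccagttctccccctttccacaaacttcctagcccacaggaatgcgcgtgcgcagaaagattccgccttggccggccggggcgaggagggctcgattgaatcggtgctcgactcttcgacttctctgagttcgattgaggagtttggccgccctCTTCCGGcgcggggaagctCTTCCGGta
Lsm6 (chr8:78821153-78821402, minus strand): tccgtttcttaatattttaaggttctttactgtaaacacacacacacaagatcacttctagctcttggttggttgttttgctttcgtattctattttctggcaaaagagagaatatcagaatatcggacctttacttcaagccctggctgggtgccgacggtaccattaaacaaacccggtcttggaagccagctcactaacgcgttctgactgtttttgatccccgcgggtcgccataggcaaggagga

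CCGGAAG was present in 31.0% of the members' windows and in 6.91% of all 32851 windows in the table. It occurred in 15 members, namely Snrpg, Snrpb2, Snrpc, Sf3a1, Sf3a2, Sf3a3, Sf3b2, Sf3b3, Prpf3, Prpf4b, Prpf19, Lsm5, Srsf4, Srsf5 and Srsf11. GGGCGG, the core bound by Sp1-family factors, was in 62.1% of the members' windows against 32.7% of all, and CCAAT was in 37.9% against 33.8%. TATAAA, the sequence bound by the TATA-binding protein of TFIID, was in 6.90% of the members' windows, those of Snrpa, Sf3b3, Srsf2 and Srsf3, against 12.4% of all. The palindromic NRF1 motif was in 1.72% of the members' windows against 0.782% of all. The 32851 windows belong to 27025 genes, many not measured here, so the shares of all windows are not those of measured genes. Among measured genes with a window 1496 had CCGGAAG and 10439 lacked it, where 15 members had it and 32 lacked it. Each motif was searched on both strands and none of these strings contains another. The median log2 change was -0.18 over the 15 members with CCGGAAG and -0.13 over the 32 members with a window that lacks it. Over all measured genes with a window it was -0.0021 over 1496 genes with the motif and 0.04 over 10439 without it. The part of the motif in the members' changes was not tested. A match is only a run of letters, and the absence of one says nothing about binding outside the window.

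Lsm6 had the largest fall of the set. Lsm6 is 1 of the 7 proteins of the ring that holds the 3′ end of U6 RNA, and it also sits in the cytoplasmic ring that starts mRNA decay. Its log2 levels were 10.35, 10.37 and 10.25 in control pools 1 to 3 and 9.84, 9.76 and 9.38 in mutant pools 1 to 3. All mutant pools were below all controls, and mutant 3 was the lowest. The log2 change was -0.66 (SE 0.12, adjusted p = 0.0223 by limma), from 10.32 ± 0.06 to 9.66 ± 0.24 (SD, n = 3 each). It was -0.52 without mutant 3 (adjusted p = 0.00275), and the gene did not pass when control 1 (adjusted p = 0.116), control 2 (0.121) or control 3 (0.0637) was left out. Few genes were called lower at all without control 1 (0.139% of all genes) or control 2 (0.191%). The same limit applies to Lsm4 and Sf3b2 below.

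Lsm4 belongs to the same rings. Its log2 levels were 11.60, 11.55 and 11.58 in the controls and 11.32, 11.29 and 11.30 in the mutants, so the 3 mutant pools lay close together and below every control. The log2 change was -0.28 (SE 0.06, adjusted p = 0.0366 by limma). Mutant 3 did not differ from the other mutants here, and the change was -0.27 without it (adjusted p = 0.0141). The call was lost without any other array, with an adjusted p of 0.0895 without mutant 1, 0.108 without mutant 2 and 0.112 to 0.153 without each control in turn.

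The other 5 proteins of the U6 ring did not pass, and all of them had negative values. The log2 changes were -0.36 for Lsm2 (SE 0.14, adjusted p = 0.174 by limma), -0.07 for Lsm3, -0.27 for Lsm5, -0.28 for Lsm7 and -0.24 for Lsm8. Lsm8, which marks the nuclear form of the ring, read 10.74, 10.80 and 10.58 in controls and 10.36, 10.59 and 10.44 in mutants, so mutant 2 overlapped the lowest control. Lsm1, which takes the place of Lsm8 in the cytoplasmic ring, changed by -0.13 on the log2 scale. Lsm10 and Lsm11 belong to the U7 snRNP, which cleaves the 3′ ends of histone transcripts and takes no part in splicing. Lsm10 had the largest positive value of the set, with log2 levels of 8.74, 8.42 and 8.80 in controls and 9.11, 8.99 and 9.20 in mutants. All mutant pools were above all controls, but the log2 change of 0.44 (SE 0.11) missed the threshold, at a limma adjusted p of 0.0573. Lsm11 changed by -0.15. For Lsm12, Lsm14a and Lsm14b, which act outside the spliceosome, the log2 changes were 0.04, -0.10 and 0.05. Over all 13 Lsm genes 2 fell (15.4%) and 0 rose, against 2.96% of all genes each way, and the median was -0.15.

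**Figure D2:**
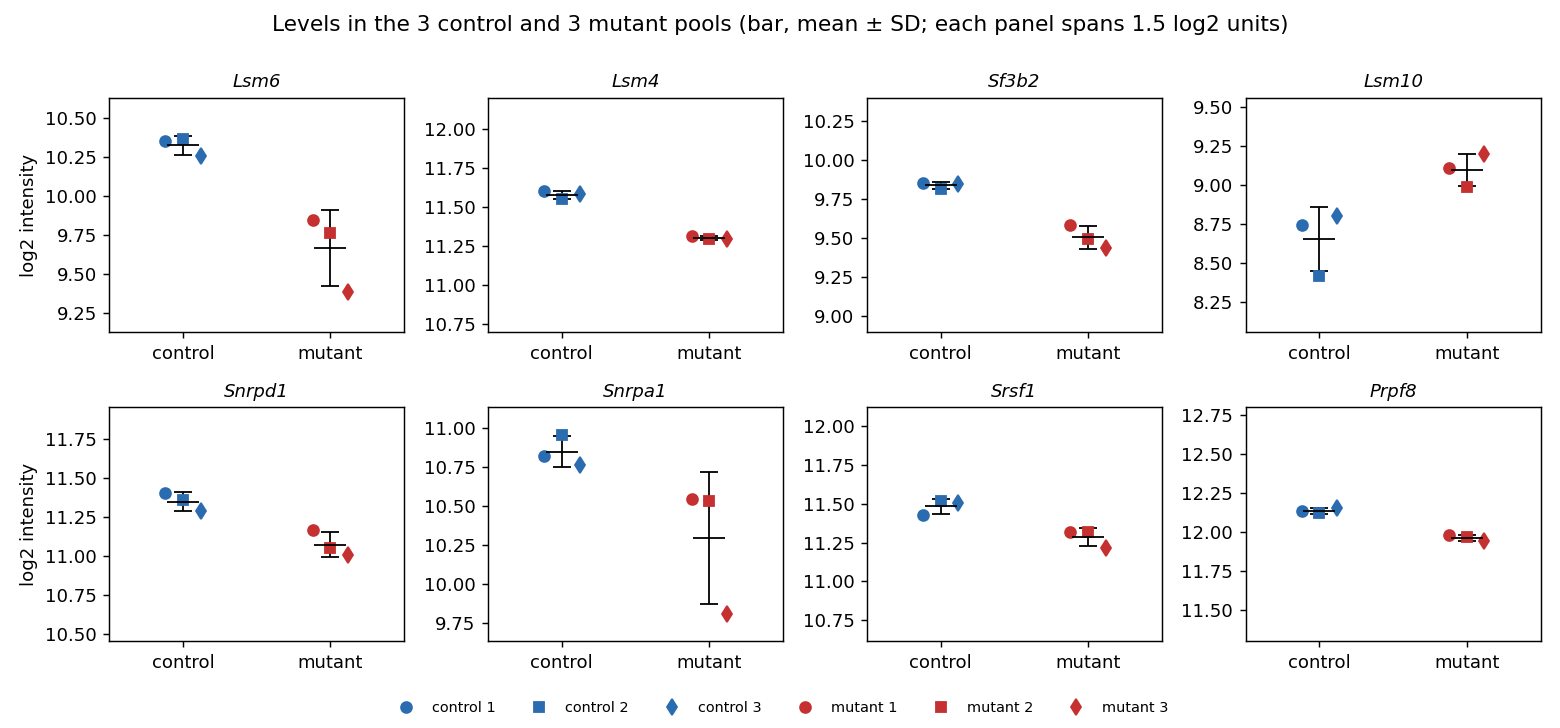
Log2 intensity (y axis, each panel spanning the same width) of 8 of the genes in the 3 control (blue) and 3 mutant (red) pools, with the mean ± SD as a bar. The mutant points of Lsm6, Lsm4 and Sf3b2 lie below all control points, and those of Lsm10 lie above them without passing the test. The 8 genes were picked by hand and in each the groups do not overlap, whereas they overlap in 31 of the 56 members.

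Sf3b2 was the gene of the U2 branch-site complexes SF3a and SF3b that fell, of 8 measured. Sf3b2 is a large SF3b subunit that holds the complex to RNA near the branch point. Its log2 levels were 9.86, 9.81 and 9.85 in controls and 9.58, 9.49 and 9.44 in mutants, with no overlap. The log2 change was -0.33 (SE 0.07, adjusted p = 0.0292 by limma), and -0.30 without mutant 3 (adjusted p = 0.0130). It no longer passed when control 1 (adjusted p = 0.131), control 2 (0.126), control 3 (0.0964) or mutant 2 (0.0894) was left out. Sf3b1, the subunit that clamps the branch-point helix, changed by -0.05 (95% interval -0.24 to 0.15). Sf3b3, its scaffold partner, read 11.91, 11.92 and 11.92 in controls and 11.87, 11.82 and 11.37 in mutants. Its log2 change of -0.23 (SE 0.13, adjusted p = 0.321 by limma) came mostly from mutant 3. In Sf3a1 it was mutants 1 and 2 that were low and mutant 3 that was not: it read 10.81, 10.63 and 10.64 in controls, 10.48 and 10.43 in mutants 1 and 2, and 10.69 in mutant 3 (log2 change -0.16, adjusted p = 0.348). Sf3a3 had the same arrangement, with a change of -0.11. The remaining changes were -0.03 for Sf3a2, -0.03 for Sf3b5 and 0.04 for Sf3b4, and the median of the 8 genes was -0.08.

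Of the Sm ring proteins, 6 were measured, 0 passed and all 6 values were negative, with a median log2 change of -0.15. The core protein gene Snrpd1 was nearest to the threshold, at 11.40, 11.36 and 11.29 in controls and 11.16, 11.05 and 11.00 in mutants. Its groups did not overlap, with a log2 change of -0.28 (SE 0.07, adjusted p = 0.0631 by limma). Without mutant 3 it passed (log2 change -0.24, adjusted p = 0.0434). Snrpe, also of the ring, read 12.16, 12.23 and 12.27 in controls and 12.06, 12.01 and 11.41 in mutants, a change of -0.39 (SE 0.16, adjusted p = 0.196) with mutant 3 far below the rest. Snrpg, Snrpd2, Snrpb and Snrpd3 changed by -0.19, -0.12, -0.09 and -0.01. Snrpf and Snrpn have no single-symbol probe set here and are not in these counts.

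Among the proteins particular to U1 or U2, 0 of 4 passed. Snrpa1, which binds U2 RNA together with Snrpb2, had log2 levels of 10.83, 10.96 and 10.77 in controls and 10.55, 10.54 and 9.81 in mutants. All mutant pools were below the controls, and mutant 3 was lower than the other mutants by more than they were below the controls. The log2 change was -0.55 (SE 0.19, adjusted p = 0.127 by limma), and without mutant 3 it was smaller and passed (-0.31, SE 0.07, adjusted p = 0.0234). Snrpb2 read 12.09, 12.12 and 12.10 in controls and 12.01, 11.95 and 11.75 in mutants, a change of -0.20 (SE 0.08, adjusted p = 0.184). Snrpa, the U1 protein that also regulates polyadenylation of its own transcript, had a positive value with all mutants above the controls (0.21, SE 0.09, adjusted p = 0.211). Snrpc, also of U1, changed by -0.14.

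U2AF, the heterodimer that binds the polypyrimidine tract and the AG of the 3′ splice site, gave 0 calls in 3 genes. U2af2, the large subunit, changed by -0.02 on the log2 scale (95% interval -0.17 to 0.13). U2af1, the small subunit, read 10.12, 10.51 and 10.41 in controls and 10.08, 10.42 and 9.75 in mutants, overlapping groups with a change of -0.26 (SE 0.17, adjusted p = 0.401 by limma). U2af1l4, a paralogue of U2af1, read 9.73, 9.54 and 9.68 in controls and 9.60, 9.52 and 9.46 in mutants (log2 change -0.12, adjusted p = 0.376).

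Of 12 Prpf genes 0 passed and 10 had negative values, with a median of -0.14. Prpf8, the protein at the catalytic centre of the spliceosome, was measured with little spread: its log2 levels were 12.13, 12.12 and 12.15 in controls and 11.98, 11.96 and 11.94 in mutants. The groups did not overlap, yet the change was small (-0.17, SE 0.06, adjusted p = 0.125 by limma). Prpf38b had the lowest value of the group, at 10.05, 10.14 and 9.97 in controls and 9.78, 9.81 and 9.27 in mutants (log2 change -0.44, SE 0.14, adjusted p = 0.117). Without mutant 3 it was -0.26 and passed (adjusted p = 0.0375). The tri-snRNP genes Prpf3, Prpf31 and Prpf6 changed by -0.16, -0.13 and -0.13 with all mutants below the controls, and none passed. Prpf39, a U1-associated factor, changed by -0.38 with a wide error (SE 0.21), and mutant 3 stood at 8.64 where the other mutants stood at 9.42 or above. Values for Prpf19, Prpf4b, Prpf38a and Prpf18 ran from -0.18 to -0.08, and Prpf4 (0.01) and Prpf40b (0.02) lay close to 0.

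None of the 10 SR protein genes passed (8 had negative values, median log2 change -0.17). At an unadjusted p under 0.05 limma gave 2 lower and 0 higher, where all genes gave 10.9% lower and 11.7% higher. Srsf1, the founding member of the family, read 11.43, 11.52 and 11.50 in controls and 11.32, 11.32 and 11.22 in mutants. Its mutant pools all lay below the controls, with a log2 change of -0.20 (SE 0.07, adjusted p = 0.120 by limma). Srsf6 read 11.62, 11.64 and 11.68 in controls and 11.50, 11.47 and 11.04 in mutants (-0.31, SE 0.12, adjusted p = 0.182), and again mutant 3 was the lowest. Srsf5, Srsf3 and Srsf4 had the same arrangement with changes of -0.41, -0.29 and -0.20. The 2 positive values were those of Srsf11, with mutants at 11.20, 11.18 and 11.20 above controls at 11.05, 11.09 and 11.08 (log2 change 0.12, adjusted p = 0.261), and of Srsf12 (0.21, adjusted p = 0.301). Srsf2 changed by -0.04, Srsf9 by -0.15 and Srsf10 by -0.09. Since these genes make transcripts with and without exons that lead to decay, and a probe set sums what it reads, shifts between such forms are not seen here.

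The size of the differences varied between mutant pools. The median distance of the 56 genes from the control mean was -0.05 in mutant 1, -0.09 in mutant 2 and -0.27 in mutant 3. Over all genes the same medians were 0.01, 0.02 and 0.08, so mutant 3 lay above the controls on that measure while the splicing genes lay furthest below. Mutant 3 was the lowest mutant for 41 of 56 members (73.2%) and for 33.1% of all genes. Of the further lists described below, the share was 68.3% for other snRNP and spliceosome genes and 73.8% for the hnRNP list. In the remaining lists it was 48.3% to 57.9%. The summed intensity of the blood markers, mostly that of the globins Hba-x, Hbb-y and Hbb-bh1, was also lowest in mutant 3 (3850). Klf1 was lowest there too, by a small margin (log2 6.847, against 6.853 in control 2). Gata1 was not (log2 6.55, against 6.35 in control 2). The summed endothelial markers were also lowest in mutant 3 (420.1). Mutants 1 and 2 both lay below all controls for 25 members (44.6%), against 21.1% of all genes. With mutant 3 left out limma called 6 members lower (10.7%, against 6.43% of all genes): Lsm6, Sf3b2, Lsm4, Snrpa1, Prpf38b and Snrpd1. It then called 1 member higher, Lsm14b, against 6.41% of all genes. Lsm14b, named after its values were seen, read 10.10, 10.03 and 10.07 in controls, 10.27 and 10.29 in mutants 1 and 2, and 9.82 in mutant 3. Snrpb was split likewise, with 11.90 and 11.84 in mutants 1 and 2 and 11.13 in mutant 3 around controls at 11.63 to 11.82.

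**Figure D3:**
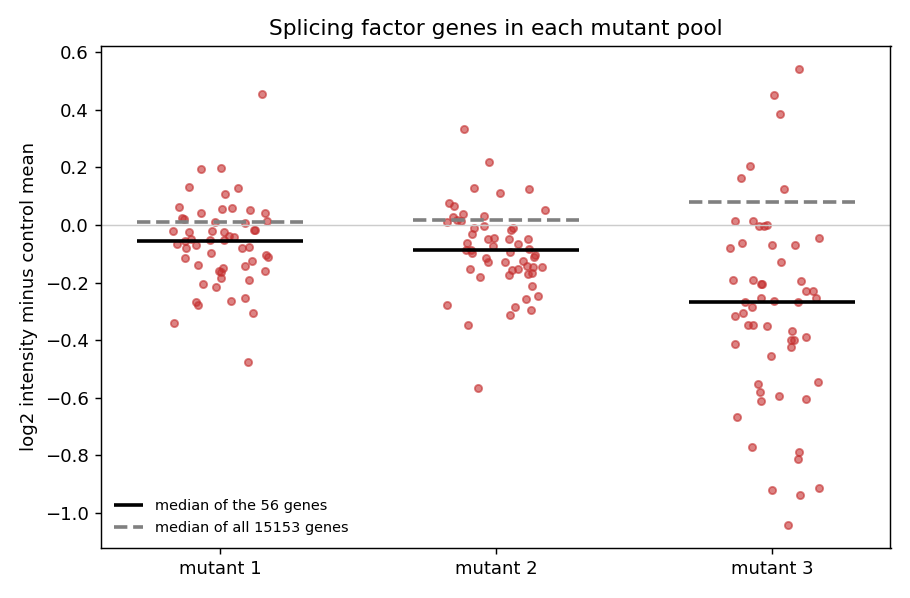
Log2 intensity minus the control mean (y axis) of the 56 genes in each of the 3 mutant pools, 1 point a gene, with sideways scatter for legibility only. The black bars are the members' medians (-0.05, -0.09 and -0.27) and the dashed grey bars the medians of all 15153 genes (0.01, 0.02 and 0.08).

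Several members were read by more than 1 probe set, and many splicing genes have processed copies elsewhere in the genome. Probe sets are numbered along the genome on this array, so the RefSeq loci of the 10 neighbours on each side show where a probe set lies. By this measure 57 of the 74 probe sets lay near the gene they are named for, with at least 25% of the neighbours within 5 Mb, and 17, of 10 genes, did not. Each of the 56 genes had a probe set near its own locus. For 6 genes the brightest probe set, which stands for the gene above, was not that one: Sf3b4, Snrpc, Srsf3, Srsf5, Srsf10 and U2af1. What the distant probe sets read, a copy or the gene itself through like sequence, is not known here.

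The choice mattered most for Srsf3, which encodes the smallest SR protein. Its brightest probe set changed by -0.29 (SE 0.13) and had 0 of 20 neighbours on the chromosome of Srsf3. The probe set with 20 of 20 neighbours near Srsf3 read 10.55, 10.54 and 10.47 in controls and 10.21, 10.21 and 9.20 in mutants. That is a log2 change of -0.65 (SE 0.24, 95% interval -1.21 to -0.08), with all mutants below the controls and mutant 3 far below the others, and it did not pass (adjusted p = 0.166 by limma). For U2af1 the probe set at its own locus gave -0.44 (SE 0.14, adjusted p = 0.115) against -0.26 for the brighter one. Lsm6 fell by the probe set at its own locus, and its other probe sets, away from that locus, gave -0.40 (adjusted p = 0.116) and -0.26 (0.267). The 2 Lsm7 probe sets, both at the locus, gave -0.28 and -0.31, and the 5 Snrpd2 probe sets ran from -0.21 to 0.02. In 3 genes (Snrpc, Snrpd2 and Srsf3) the probe sets differed in sign. With the probe set at the own locus standing for each gene, a choice made after seeing the data, 3 members fell and 0 rose.

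**Figure D4:**
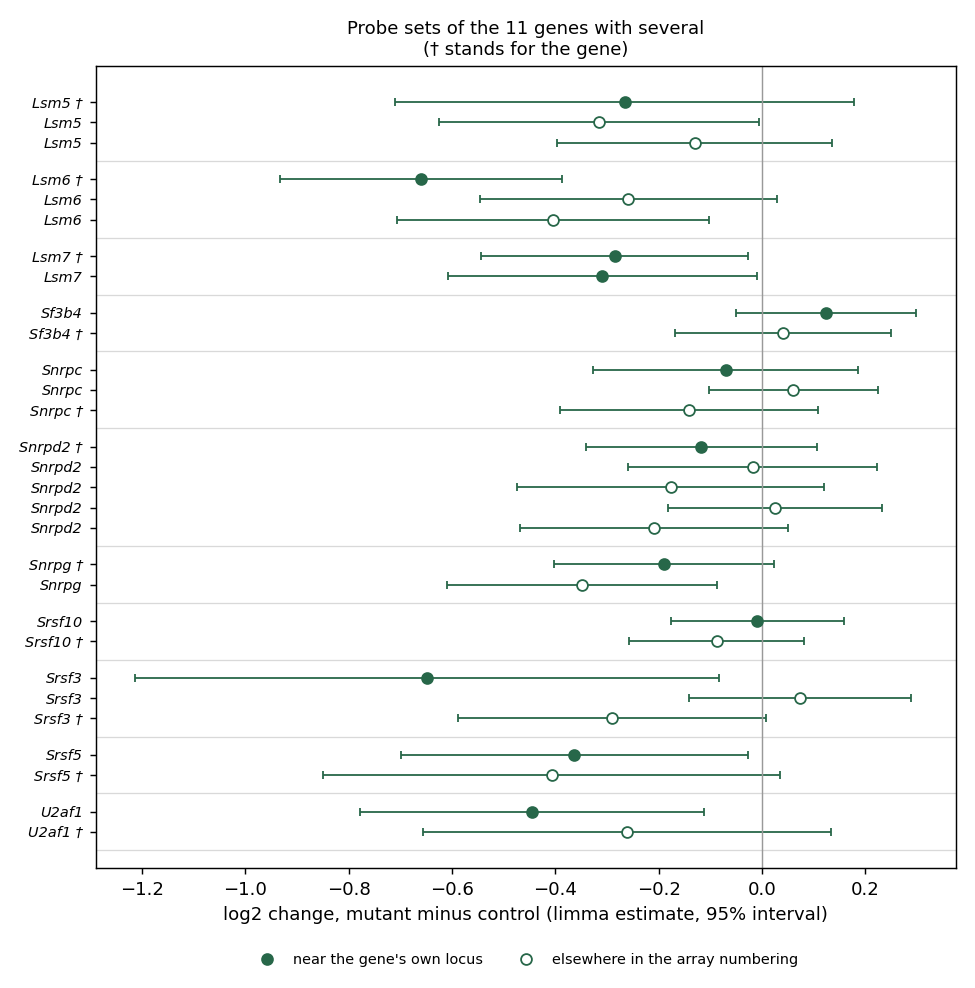
Log2 change, mutant minus control, with its 95% interval (x axis) for each probe set of the 11 genes that have several. Filled points lie near the gene's own locus in the array numbering, open points lie elsewhere, and a dagger marks the probe set that stands for the gene. The filled point of Srsf3 (-0.65) lies furthest from the open ones.

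Genes of the same pathway that the naming rule leaves out were taken from lists drawn up by function. Of 60 other snRNP and spliceosome genes 1 fell (1.67%) and 0 rose, against 2.96% of all genes each way. The median log2 change was -0.12. The one that fell was Puf60, a U2AF2-like binder of polypyrimidine tracts, from 10.51, 10.44 and 10.40 in controls to 10.19, 10.13 and 10.15 in mutants (-0.29, SE 0.06, adjusted p = 0.0374 by limma). Of 29 SR-related proteins and SR kinases 2 fell (6.90%) and 0 rose, against 2.96% of all genes each way (median -0.07). They were Srek1, at 71.6% of control (log2 -0.48, SE 0.09, adjusted p = 0.0271 by limma), and Rsrc1, at 71.5% (log2 -0.48, SE 0.11, adjusted p = 0.0405), both proteins with arginine-serine repeats.

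Of 42 hnRNPs and other regulators of splice-site choice 7 fell (16.7%, against 2.96% of all genes) and 0 rose (2.96% of all genes), with a median of -0.15. Ptbp2, a repressor of exons best known from neurons, fell to 56.2% of control, from 11.89, 11.98 and 11.91 to 11.04, 11.06 and 11.18. That log2 change of -0.83 (SE 0.07, adjusted p = 0.00252 by limma) was larger than that of any member, and Ptbp2 also passed with each array left out in turn. Rbmx (hnRNP G) fell to 59.8% (log2 -0.74, SE 0.12, adjusted p = 0.0154), Hnrnpdl to 65.6% (log2 -0.61, adjusted p = 0.0133), Hnrnpc to 68.9% (log2 -0.54, adjusted p = 0.0158) and Hnrnpl to 69.8% (log2 -0.52, adjusted p = 0.0167). Nono and Ptbp3 fell by less (log2 -0.27 and -0.32). Without control 1 or control 2 the list gave 1 call, Ptbp2, where the share of all genes called lower was 0.139% and 0.191%.

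Of 28 genes for snRNP assembly and small nuclear RNAs 1 fell and 1 rose (3.57% each way, against 2.96% of all genes each way), with a median of -0.01. Larp7, which protects 7SK RNA and helps modify U6 RNA, fell to 61.8% of control, from 11.15, 11.15 and 11.14 to 10.45, 10.32 and 10.59 (log2 -0.70, SE 0.08, adjusted p = 0.00646 by limma). Ints11, the nuclease of the Integrator complex that cuts the 3′ ends of small nuclear RNAs, rose 1.24-fold (log2 0.30, SE 0.07, adjusted p = 0.0444), a call lost after median centring of the arrays (adjusted p = 0.0521). Of 19 polyadenylation factors limma called 0. At an unadjusted p under 0.05 limma gave 1 lower and 0 higher, where all genes gave 10.9% lower and 11.7% higher. Without mutant 3 limma called 1 of them higher, where 6.41% of all genes were called higher. The nearest were Nudt21 (log2 -0.24, adjusted p = 0.188) and Rbbp6 (log2 0.15, adjusted p = 0.233), and the median was 0.004. Calls in these lists were lost when 1 array was left out: Puf60, Srek1, Rsrc1 and Ints11 did not pass without control 1, 2 or 3 or without mutant 1, Puf60, Rsrc1 and Ints11 did not pass without mutant 2 either, and Larp7 did not pass without control 1 (adjusted p = 0.0501) or control 2 (0.0533).

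**Figure D5:**
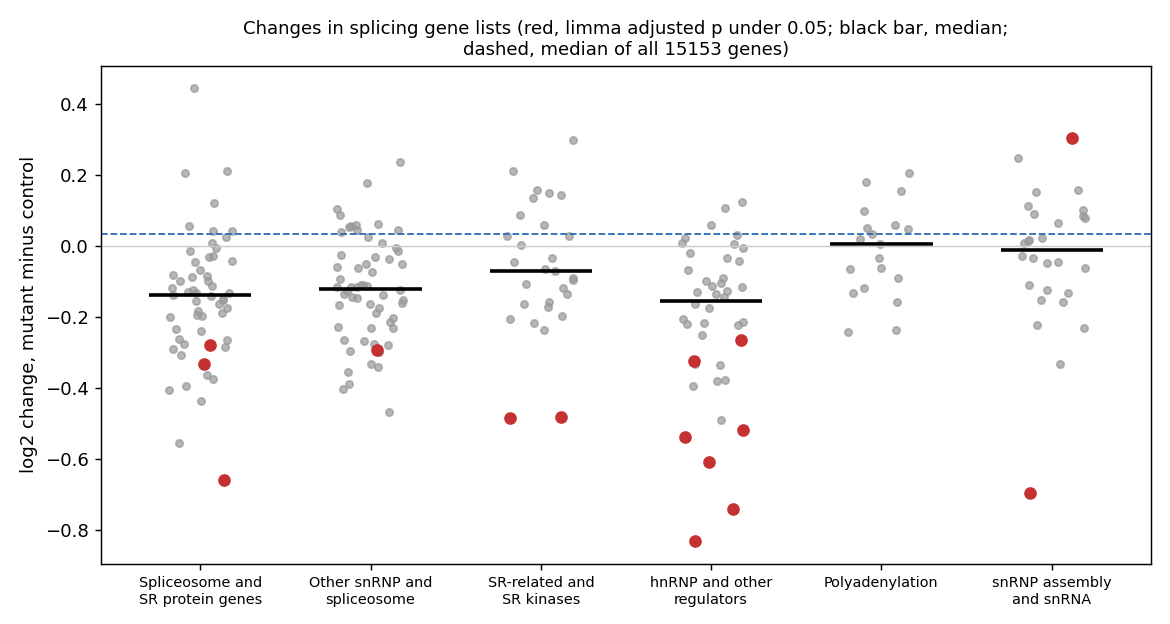
Log2 change, mutant minus control (y axis), of each gene in the set described here and in 5 further lists of splicing and RNA-processing genes, 1 point a gene with sideways scatter. Red points passed limma at an adjusted p under 0.05, black bars are list medians and the dashed line is the median of all 15153 genes (0.03); the hnRNP list holds 7 red points and reaches -0.83 with Ptbp2.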

How the data were processed

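The deposited table holds linear intensity values made by the submitters with RMA, per the submitters' processing notes; RMA subtracts background, equalises the arrays and combines the probes of a set, and its version is not stated in the labels. Each array took 150 ng of RNA, per the labels' protocols. The log2 of each value was used as it stood, with dim probe sets kept. Of 18064 probe sets, 16311 had 1 gene symbol, 734 several and 1019 none here; 3 probe sets with several symbols hold a member's symbol and were not used. The gene ID of 16284 matched RefSeq, and 0 symbols changed. All 16311 entered 1 limma fit (version 3.58.1, R 4.3.3; lmFit, eBayes; 3 mutant against 3 control arrays, no covariate), with Benjamini-Hochberg adjustment over all of them. Where a gene had several probe sets, the brightest on average over all 6 arrays represented it. SE is that of limma's moderated test. Changes are mutant minus control.

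By the naming rule, full values are given for each called member and for the 2 uncalled members with the smallest p in each role group; of each further list, up to 5 called genes or, with none called, 2. Other members are named with their change; further values of some of them (pool values of Srsf11, Snrpb, Prpf39, Lsm14b and the Srsf3 probe set at its locus, and errors, intervals or p-values of a few more) were chosen after the values were seen. The members, lists and rules were chosen with earlier results of these data known. Pools are biological replicates per the labels, so a p-value sets the mean difference against the spread between pools, moderated over all probe sets. The spread between embryos within a pool is not seen, and the number of arrays limits the precision. The script was tested on simulated data. The labels do not state that the replicate numbers pair the pools, and the check made cannot decide it. The main fit has no block.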

Additional observations from a re-analysis of the deposited data

How the results depend on the processing

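The count of 3 members lower was 2 to 4 under quantile normalization, median centring, the filter on level at the 40th percentile, other forms of eBayes, other probe set choices, all probe sets, an adjusted p under 0.1 and, chosen after seeing the data, a loess correction of each array for level. It was 15 with array weights, 0 at an adjusted p under 0.01 and 6 without control 3 and mutant 3 together. With 1 array left out it ran from 0 to 6: leaving out any control gave 0, leaving out mutant 1, 2 or 3 gave 2, 1 and 6. Over all genes limma called 0.139% lower without control 1, 0.191% without control 2 and 6.43% without mutant 3, against 2.96% with all arrays. The share of all genes is not given for array weights or the other alternatives, so counts there cannot be set against it. The count of members higher was 1 with the replicate block, 2 with array weights, 1 at an adjusted p under 0.1, 1 without control 3 and mutant 3 together, and 0 to 1 with 1 array left out. The members' median change was negative under every alternative run, from -0.19 without mutant 1 to -0.08 without mutant 3, and was -0.10 after quantile normalization, -0.11 after the loess correction for level, -0.08 with array weights and -0.08 without control 3 and mutant 3 together. The replicate block gave 4 members lower and called Lsm10 higher (adjusted p = 0.0232). Deviations of same-numbered pools correlated at 0.13, 0.08 and 0.32 for numbers 1, 2 and 3, and control 1 correlated best with mutant 2 (0.20). The value of 0.32 was the highest among all pairs of a control and a mutant pool. With 3 pools a group, whose deviations sum to 0, these values cannot decide whether the numbers pair the pools. Of the further lists, other snRNP and spliceosome genes gave 1 call lower, 16 with array weights, 9 without control 3 and mutant 3 together, 7 without mutant 3, 0 without any other array or at an adjusted p under 0.01, and 1 to 4 under the rest. The hnRNP list, with 7 lower, gave 12 with array weights, 1 at an adjusted p under 0.01, 1 without control 1 or 2, 3 without control 3 and 5 to 9 under the rest. SR-related genes, with 2 lower, gave 4 with array weights, 0 without any control, mutant 1 or at an adjusted p under 0.01, and 1 without mutant 2. Assembly genes, with 1 lower and 1 higher, gave 5 and 3 with array weights and 3 lower without mutant 3. Each count of 0 in the further lists became 1 to 3 with array weights. Without mutant 3 the SR-related list and the polyadenylation list each gave 1 higher, where 6.41% of all genes were called higher.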
